A study of Mus musculus with 17 samples.

Results

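The MYC network and the D-type cyclins were followed here through 9 genes: Myc, Mycn, Max, Mxd3, Mxd4, Mxi1, Tfap4, Ccnd2 and Ccnd3. They were taken by gene name from a table of 55536 genes, in which each name occurred as 1 row. A filter on low counts kept 15352 genes for testing and 8 of the 9 members; Mycn did not pass it. The table holds RNA sequencing counts of B cells sorted from mouse spleen. The mice were p52ki, a knock-in of the NF-kB subunit p52, or wild type (WT). Each genotype was sampled as naive B cells, activated B cells and cells of the germinal centre (GC), with 3 libraries in every group except p52ki GC cells, which had 2. By its title the series is about how p52 and ETS1, a transcription factor, act together when GCs form. The sources used here do not give the changed residue or allele of the knock-in, the strain, age and sex of the mice, any immunisation or the sorting gates.

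Myc and Mycn encode activators that bind DNA as dimers with MAX, most readily at the sequence CACGTG, and raise the expression of genes for growth and metabolism. MAX also pairs with the repressors encoded by Mxd3, Mxd4 and Mxi1, which bind the same sites and oppose MYC. In mouse GCs, Myc is known for its brief induction in cells that receive help from T cells, and Tfap4, itself a MYC target, for sustaining their division after Myc has declined. D-type cyclins switch on the kinases CDK4 and CDK6 at entry into the cell cycle. In mouse B cells Ccnd2 is known as a cyclin induced by antigen receptor signals, and Ccnd3 as the D-type cyclin on which the expansion of GC cells depends.

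The bases just before the transcription start are shown for 3 members, because the results turn on Mxd3 and Ccnd3 and because Mxd4 is the member with a CACGTG in this window. The RefSeq promoter table (GRCm38.p6) matched 6 of the 9 members, namely Mycn, Max, Mxd3, Mxd4, Mxi1 and Ccnd3, with 9 windows. Myc, Tfap4 and Ccnd2 are named only. Each sequence runs 5′ to 3′ on the gene's strand over the 250 bases before the RefSeq start. Matches to the searched motifs are in capitals. The windows are chr13:55329732-55329981 on the minus strand, chr5:34187711-34187960 on the minus strand and chr17:47504801-47505050 on the plus strand. The GENCODE M21 annotation starts Mxd3 at 55329823 and Mxd4 at 34187720, inside their windows. By that annotation the bases closest to the RefSeq start of these 2 genes are already transcribed. Ccnd3 has another start further downstream, with a window at chr17:47593217-47593466 that is not printed.
Mxd3: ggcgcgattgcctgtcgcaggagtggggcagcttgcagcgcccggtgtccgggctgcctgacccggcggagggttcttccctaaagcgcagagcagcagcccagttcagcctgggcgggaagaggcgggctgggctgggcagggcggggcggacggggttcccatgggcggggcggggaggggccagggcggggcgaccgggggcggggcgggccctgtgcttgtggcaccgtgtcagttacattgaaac
Mxd4: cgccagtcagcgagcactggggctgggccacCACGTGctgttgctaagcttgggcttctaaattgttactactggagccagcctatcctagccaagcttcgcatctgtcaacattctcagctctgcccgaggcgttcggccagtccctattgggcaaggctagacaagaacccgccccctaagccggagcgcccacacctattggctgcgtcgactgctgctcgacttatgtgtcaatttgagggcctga
Ccnd3: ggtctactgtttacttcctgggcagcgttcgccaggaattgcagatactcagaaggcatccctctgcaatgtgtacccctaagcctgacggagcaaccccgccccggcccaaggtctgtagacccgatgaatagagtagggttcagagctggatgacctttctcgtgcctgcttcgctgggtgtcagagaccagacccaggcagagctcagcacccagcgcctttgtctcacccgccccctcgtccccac
The motifs searched on both strands were the E-box CACGTG, the ETS motif CCGGAAGT, the E2F motifs TTTCCCGC, TTTCGCGC, TTTGCCGC and TTTGGCGC, and the NF-kB consensus. Mxd4 held 1 E-box, 219 bases before its start. Mycn held 3 E2F matches, at 183, 179 and 168 bases before its start. The other members with a window, Mxd3 and Ccnd3 included, had no match to any of these motifs. Over the same window of 32851 promoters in that table, the E-box was present in 6.02%, the ETS motif in 2.88%, the E2F motifs in 1.86% and the NF-kB consensus in 7.25%. A match is a description of these letters and not a binding site.

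Assigned counts ran from 4067281 to 10036347 per library. Of the 5 GC libraries, 3 stood apart before any comparison. WT GC replicate 3 and p52ki GC replicates 2 and 5 had a count in 11232, 11390 and 13044 genes, against 16745 to 19672 in the other 14 libraries. The 7 B cell markers such as Cd79a summed to 12120 to 15470 CPM (counts scaled to a common library total, with TMM factors) in p52ki GC cells, 9372 to 10990 in WT GC cells and 13080 to 20610 in the naive and activated groups, and none was at 0 in any whole group. The 7 GC markers, among them Bcl6, summed to 880 and 1904 CPM in p52ki GC replicates 2 and 5, against 1746 to 2662 CPM in WT GC cells and 56.0 to 266 CPM in the naive and activated groups. The 7 markers of naive follicular cells, such as Ccr7, summed to 1530 and 1746 CPM in p52ki GC cells, against 539 to 860 CPM in WT GC cells. A list of 10 genes raised in the dark zone, where GC cells divide, summed to 760.5 and 851 CPM in p52ki GC cells, against 1571 to 2199 CPM in WT GC cells and 87.6 to 241 CPM in the naive and activated groups. A list of 14 genes of the light zone, the other zone of the GC, summed to 1976 and 2394 CPM in p52ki GC cells. It summed to 1686 to 2077 CPM in WT GC cells and 1324 to 2184 CPM in the naive and activated groups. The 7 plasma cell markers, Jchain among them, summed to 321 to 349 CPM in p52ki and 335 to 396 CPM in WT naive cells. In activated cells they summed to 1660 to 3279 CPM in p52ki and 1954 to 8207 CPM in WT, and in GC cells to 2724 and 2763 CPM in p52ki and 2674 to 5921 CPM in WT. Most of these activated and GC sums was Jchain alone, at 1325 to 7346 CPM in activated and 2236 to 5262 CPM in GC libraries. The other markers did not move alike. Sdc1 was at 0 to 6.95 CPM in GC and 11.9 to 20.2 CPM in naive libraries, and Mzb1 at 20.4 to 39.2 against 11.5 to 14.3 CPM. Summed markers of T cells were at most 129 CPM, of macrophages, monocytes and dendritic cells 107 CPM, and of NK cells 54.7 CPM in any library. The highest T cell sum, in WT GC replicate 4, was mostly Lck alone, at 122 CPM. In both p52ki GC libraries 5 of 10 T cell markers, with Cd3g, Cd4 and Trac among them, were at 0. So were 5 of 10 markers of macrophages, monocytes and dendritic cells, with Csf1r, Itgam and Lyz2 among them. Others were present: Cd3e, Cd3d and Trbc2 had 26.6, 11.4 and 10.9 CPM in p52ki GC replicate 2. Lck had 30.95 and 66.2 CPM in p52ki GC replicates 2 and 5, against 39.05 to 122 CPM in WT GC cells. In p52ki GC replicate 5, Cd68, C1qb and Flt3 had 37.85, 30.6 and 38.3 CPM. Flt3 had 34.0 to 58.0 CPM in WT GC cells. Markers of red cells and platelets summed to 325 and 372 CPM in p52ki GC cells, against 48.8 to 236 CPM in WT GC cells, with 5 of 9, Pf4 among them, at 0 in both p52ki GC libraries. The part of these differences in the results was not tested.

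A gene was called where its adjusted p (edgeR's quasi-likelihood test, Benjamini-Hochberg over all genes kept) was under 0.05. Members were called only in comparisons with GC cells. In WT GC cells against WT activated cells, Ccnd3 and Mxd3 rose while Ccnd2 and Myc fell, which made 4 of 8 tested members called, where 13.6% of all tested genes were called, 5.8% higher and 7.75% lower. In WT GC cells against WT naive cells, Ccnd3 and Mxd3 rose, which made 2 of 8 called against a background of 15.9%, with 8.45% higher and 7.47% lower. In p52ki GC cells Mxd3 alone of the members was called. It rose against p52ki activated cells, where 25.6% of all genes were called (6.34% higher, 19.3% lower), and against p52ki naive cells, where 29.1% were called (8.68% higher, 20.4% lower).

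Activation itself moved no member past the threshold. Activated against naive cells gave 0 of 8 members called in p52ki, where 0.117% of all genes were called, and 0 of 8 in WT, where 0.319% were called. By the same edgeR test 1 member in p52ki (Ccnd2) and 2 members in WT (Ccnd2 and Mxd4) had an unadjusted p under 0.05. DESeq2 called 0 members in either genotype, whereas limma voom with sample quality weights called 1 in p52ki (Ccnd2) and 3 in WT (Ccnd2, Mxd4 and Myc). Between genotypes, p52ki against WT gave 0 of 8 members in naive cells and 0 of 8 in activated cells, with 0 members at an unadjusted p under 0.05 in either and 0 called by DESeq2 or limma voom. The background was 0% of genes called in naive cells and 0.013% in activated cells. In GC cells 1 of 8 members was called, Tfap4, higher in p52ki, against a background of 16% (3.75% higher, 12.2% lower).

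**Figure D1:**
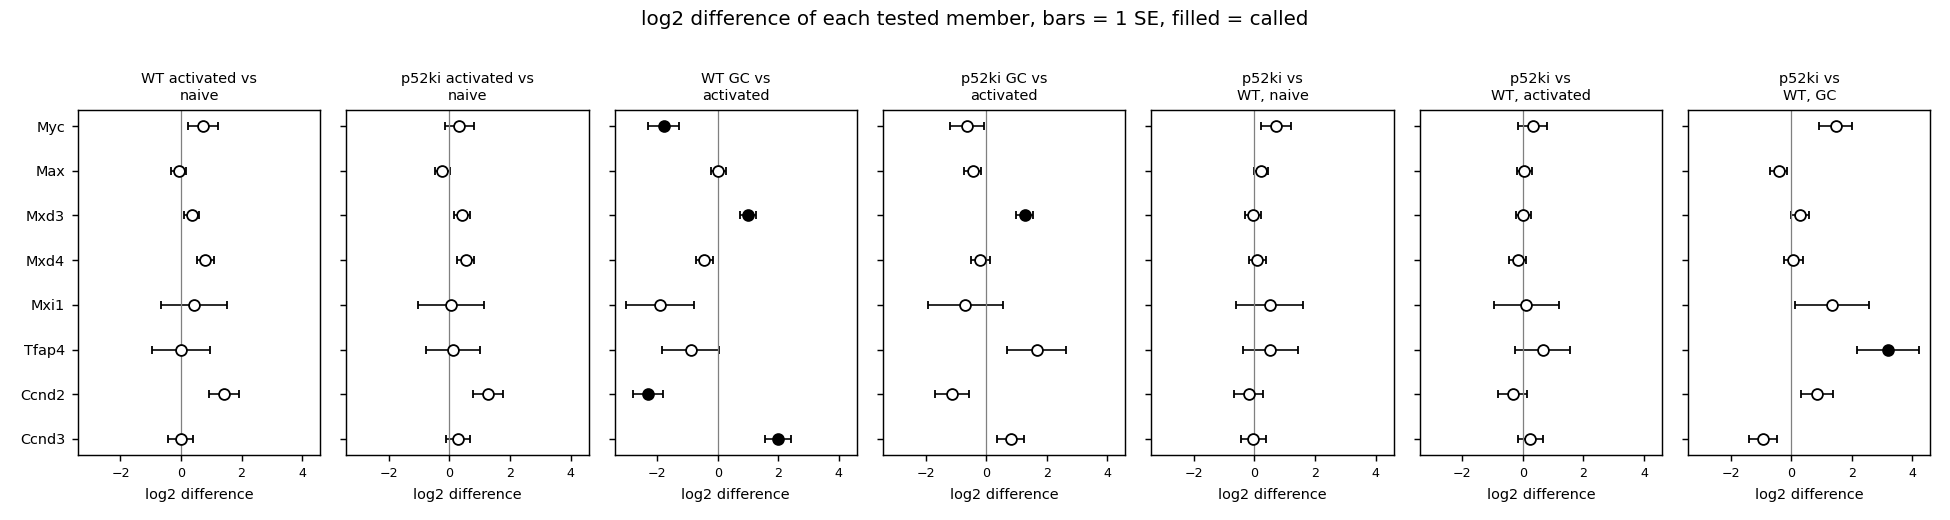
Log2 difference of the 8 tested members (rows) in 7 comparisons (panels), from edgeR; the bars are 1 SE and filled points were called at an adjusted p under 0.05. Filled points lie in the GC comparisons: 4 members in WT GC against activated cells, Mxd3 in p52ki GC against activated cells, and Tfap4 in p52ki against WT GC cells.

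Myc (ENSMUSG00000022346, chromosome 15, 61985391 to 61990374, plus strand, GRCm38) was read in every library. In the values that follow, p52ki libraries are in the order of replicates 2, 3 and 5 (GC cells 2 and 5) and WT libraries in the order 1, 3 and 4. In naive cells Myc stood at 227, 249 and 102 CPM in p52ki and at 80.8, 118 and 154 CPM in WT. Activated cells had 288, 292 and 146 CPM of Myc in p52ki, against 128, 197 and 256 CPM in WT. GC cells had 258 and 52.9 CPM in p52ki, against 54.0, 43.1 and 71.0 CPM in WT. The 3 WT GC libraries were below every naive and activated library, while the 2 p52ki GC libraries fell on either side of most of them.

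In WT, GC cells averaged 56.0 ± 14.0 CPM of Myc and activated cells 194 ± 63.7 CPM (SD, n = 3 each), a log2 difference of -1.79 (SE 0.507; edgeR adjusted p = 0.0287). This call was the least firm of the 4: it was lost in 7 of 13 alternatives, with an adjusted p of up to 0.106. The libraries whose omission ended it were WT GC replicate 1 (adjusted p = 0.0760), replicate 3 (0.0721) and replicate 4 (0.0516), and WT activated replicate 3 (0.0667) and replicate 4 (0.106), while the log2 difference stayed between -2.00 and -1.54. Against naive cells Myc in WT GC cells differed by -1.07 (SE 0.498; edgeR adjusted p = 0.168) although the groups did not overlap. With the replicate number as a block in the fit this difference was called (-1.03, edgeR adjusted p = 0.0389).

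For p52ki, the Myc value of GC cells depended on the library. The 2 libraries averaged 155 ± 145 CPM (SD, n = 2), against 242 ± 83.3 CPM in activated cells (SD, n = 3), a log2 difference of -0.64 (SE 0.559; edgeR adjusted p = 0.421). Without p52ki GC replicate 2 the difference was -2.09 (edgeR adjusted p = 0.0241) against activated cells and -1.73 (adjusted p = 0.0411) against naive cells. In GC cells p52ki differed from WT by 1.47 (SE 0.544; edgeR adjusted p = 0.0772), and without p52ki GC replicate 5 by 2.29 (adjusted p = 0.00278). DESeq2 put the same comparison at an adjusted p of 0.0354. In the order of group means, WT GC cells came last, below WT naive cells with no overlap of libraries, and the other 5 groups overlapped from each to the next.

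Within a group, the libraries that were high in Myc were mostly also high in immediate early genes. Such genes respond within minutes to signals at the cell surface and also to handling of cells. A list of 14 such genes, with Egr1, Fos and Nr4a1 among them, ordered the libraries of a group as Myc did in 5 of 6 groups. The exception was WT GC cells, and p52ki GC cells had only 2 libraries to order. Its sum was 6568, 6672 and 3563 CPM in p52ki naive cells, against 3280, 4204 and 6365 CPM in WT naive cells. In activated cells the sum was 5874, 6285 and 2784 CPM in p52ki, against 2642, 3556 and 5229 CPM in WT. GC cells had 2758 and 1548 CPM in p52ki, against 1465, 1699 and 2429 CPM in WT. Between stages Myc and the sum did not move alike. From naive to activated cells mean Myc rose from 192.5 to 242 CPM in p52ki and from 118 to 194 CPM in WT. The median sum fell from 6568 to 5874 CPM in p52ki and from 4204 to 3556 CPM in WT. In p52ki GC replicate 2 Myc was at 258 CPM, while the sum was below that of every naive library. Of the 13 tested genes of this list, 5 fell in WT GC cells against activated cells, where 7.75% of all genes were called lower, with a median log2 difference of -1.13 beside -0.13 over all genes. The part of this in the Myc result was not tested.

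Mycn (ENSMUSG00000037169, chromosome 12, minus strand), the neural paralog, was close to absent. It had 2 and 8 counts in p52ki activated replicates 2 and 3 and 1 count in WT activated replicate 3, and no count in the other 14 libraries. A library with 0 counts allows up to 3, which is 0.285 to 0.726 CPM over those 14 libraries, and such floors cover counting error only.

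Max (ENSMUSG00000059436, chromosome 12, minus strand), the partner of both MYC and its opponents, varied less between groups than Myc did. In naive cells it had 65.2, 55.6 and 78.1 CPM in p52ki, against 60.5, 47.9 and 63.0 CPM in WT. Activated cells had 53.5, 57.5 and 57.7 CPM in p52ki, against 50.8, 50.7 and 61.4 CPM in WT. GC cells had 49.1 and 33.8 CPM in p52ki, against 65.8, 48.6 and 50.2 CPM in WT. The WT groups overlapped at all 3 stages, with log2 differences from -0.07 to 0.02. The 2 p52ki GC libraries were below every p52ki naive and activated library, yet the difference from naive cells missed the threshold (log2 -0.68, SE 0.281; edgeR adjusted p = 0.0796) and passed it with DESeq2 (adjusted p = 0.0239).

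Tfap4 (ENSMUSG00000005718, chromosome 16, minus strand), which encodes the factor AP-4, had few counts in nearly all libraries. Naive cells had 2.27, 3.56 and 2.56 CPM in p52ki, against 2.08, 1.84 and 1.90 CPM in WT. Activated cells had 3.59, 3.40 and 2.14 CPM in p52ki, against 0.726, 3.04 and 1.95 CPM in WT. In GC cells the counts were 76 and 7 in p52ki, against 14, 0 and 11 in WT, which is 18.4 and 1.15 CPM against 1.79, 0 and 1.19 CPM. One library, p52ki GC replicate 2, thus held nearly all of the signal, and replicate 5 lay within the range of WT.

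The call of Tfap4 rests on that library. With both p52ki GC libraries the log2 difference from WT GC cells was 3.20 (SE 1.03; edgeR adjusted p = 0.0469), and without p52ki GC replicate 2 it was 0.22 (adjusted p = 0.917). The call was also lost without WT GC replicate 1 (log2 3.84, adjusted p = 0.0631) or replicate 4 (3.32, 0.0976), with these 2 groups alone in the fit (adjusted p = 0.610) and with limma voom and sample quality weights (0.697). Without p52ki GC replicate 5 Tfap4 in p52ki GC cells was higher by 2.71 than in activated cells (edgeR adjusted p = 0.0237) and by 2.87 than in naive cells (0.0169). With both libraries those differences were 1.66 (SE 0.979; adjusted p = 0.222) and 1.79 (SE 0.982; adjusted p = 0.181).

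**Figure D2:**
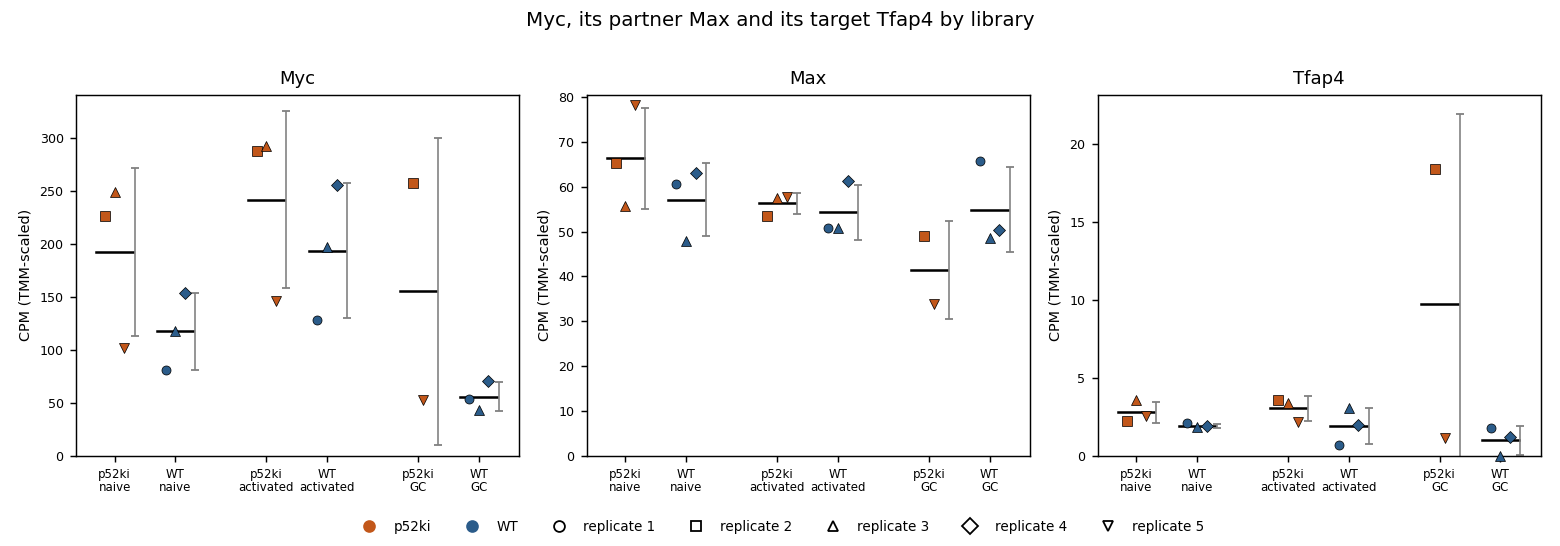
CPM of Myc, Max and Tfap4 in each library (points, marker by replicate), by genotype and stage; black lines are group means and grey bars 1 SD, cut at 0. The 3 WT GC libraries and p52ki GC replicate 5 lie lowest for Myc (43.1 to 71.0 CPM), and p52ki GC replicate 2 lies apart for Myc (258 CPM) and Tfap4 (18.4 CPM).

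Mxd3 (ENSMUSG00000021485, chromosome 13, 55325168 to 55329823, minus strand), a MAX-binding repressor known from mouse cells for its expression in S phase, was the one member called in GC cells of both genotypes. Naive cells had 29.7, 43.1 and 31.8 CPM in p52ki, against 39.9, 31.5 and 37.0 CPM in WT. Activated cells had 39.5, 58.2 and 42.2 CPM in p52ki, against 43.4, 37.1 and 57.3 CPM in WT. GC cells had 119.7 and 105 CPM in p52ki, against 77.7, 96.4 and 101 CPM in WT. All 5 GC libraries, the 3 with few detected genes included, were above all 12 others.

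Against naive cells Mxd3 was higher by 1.69 on the log2 scale in p52ki GC cells (SE 0.286; edgeR adjusted p = 0.000889) and by 1.34 in WT GC cells (SE 0.264; adjusted p = 0.00245). Both calls held in every alternative run, 12 for p52ki and 13 for WT, with adjusted p-values of at most 0.0429 and 0.0203. Against activated cells Mxd3 was higher by 1.27 in p52ki (SE 0.286; edgeR adjusted p = 0.00617) and by 1.00 in WT (SE 0.261; adjusted p = 0.0189). The WT call was lost without WT activated replicate 1 (log2 1.02, adjusted p = 0.0549), WT activated replicate 3 (0.87, 0.0789) or WT GC replicate 4 (0.92, 0.0628), with no filter on low counts (adjusted p = 0.144) and with these groups alone in the fit (0.121). The p52ki call was lost with a covariate for detected genes (adjusted p = 0.0678), with limma voom and sample quality weights (0.156) and with these groups alone in the fit (0.0536). In GC cells p52ki differed from WT by 0.29 (SE 0.287; edgeR adjusted p = 0.510), with the p52ki libraries just above the WT ones. The genotype difference in the change from activated to GC cells was 0.27 (SE 0.388; edgeR adjusted p = 0.728). Mxd3 shares 105 exon bases, 4.43% of its exon length, with Prelid1 on the opposite strand; the sources used here do not give the strand setting of the counts, so reads there cannot be assigned to one of them.

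Mxd4 (ENSMUSG00000037235, chromosome 5, minus strand), a repressor of the same family linked to resting and differentiating cells, was highest on average in activated cells. Naive cells had 35.6, 44.8 and 45.3 CPM in p52ki, against 42.1, 36.4 and 38.9 CPM in WT. Activated cells had 43.0, 49.2 and 89.7 CPM in p52ki, against 66.6, 63.9 and 74.6 CPM in WT. GC cells had 46.7 and 58.7 CPM in p52ki, against 46.7, 55.1 and 48.4 CPM in WT. In WT the activated libraries were above all naive and GC libraries, but the difference from naive cells was not called (log2 0.80, SE 0.281; edgeR adjusted p = 0.474). In p52ki only replicate 5 reached that level, and the log2 difference from naive cells was 0.53 (SE 0.280; adjusted p = 1).

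Mxi1 (ENSMUSG00000025025, chromosome 19, plus strand), the third of these repressors, was at 23.7, 15.96 and 18.1 CPM in p52ki naive cells, against 12.8, 11.4 and 16.7 CPM in WT. Activated cells had 24.2, 17.9 and 17.7 CPM in p52ki, against 12.9, 25.7 and 16.5 CPM in WT. GC cells had 0 and 24.6 CPM in p52ki, against 9.09, 0 and 5.32 CPM in WT. The 2 libraries at 0, p52ki GC replicate 2 and WT GC replicate 3, are the 2 with the fewest detected genes, and 3 counts there would be 0.726 and 0.610 CPM. With all libraries no Mxi1 difference was called, and in GC cells p52ki differed from WT by 1.34 (SE 1.22; edgeR adjusted p = 0.470). Alternatives called that comparison in both directions. Mxi1 was called higher in p52ki GC cells with a covariate for detected genes (log2 5.44, edgeR adjusted p = 0.0186), as was the genotype difference in the change from activated to GC cells (6.12, adjusted p = 0.0441). It was also called higher with WT GC replicate 3, which has no Mxi1 count, as the one WT GC library (edgeR adjusted p = 0.0370). In WT GC against activated cells limma voom with sample quality weights called it lower (log2 -1.47, adjusted p = 0.0212). Omission of p52ki GC replicate 5 leaves that group at 0, and Mxi1 was then called lower than in activated (edgeR adjusted p = 0.00853), naive (0.00830) and WT GC cells (0.0407), in calls that rest on a single library with no count.

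**Figure D3:**
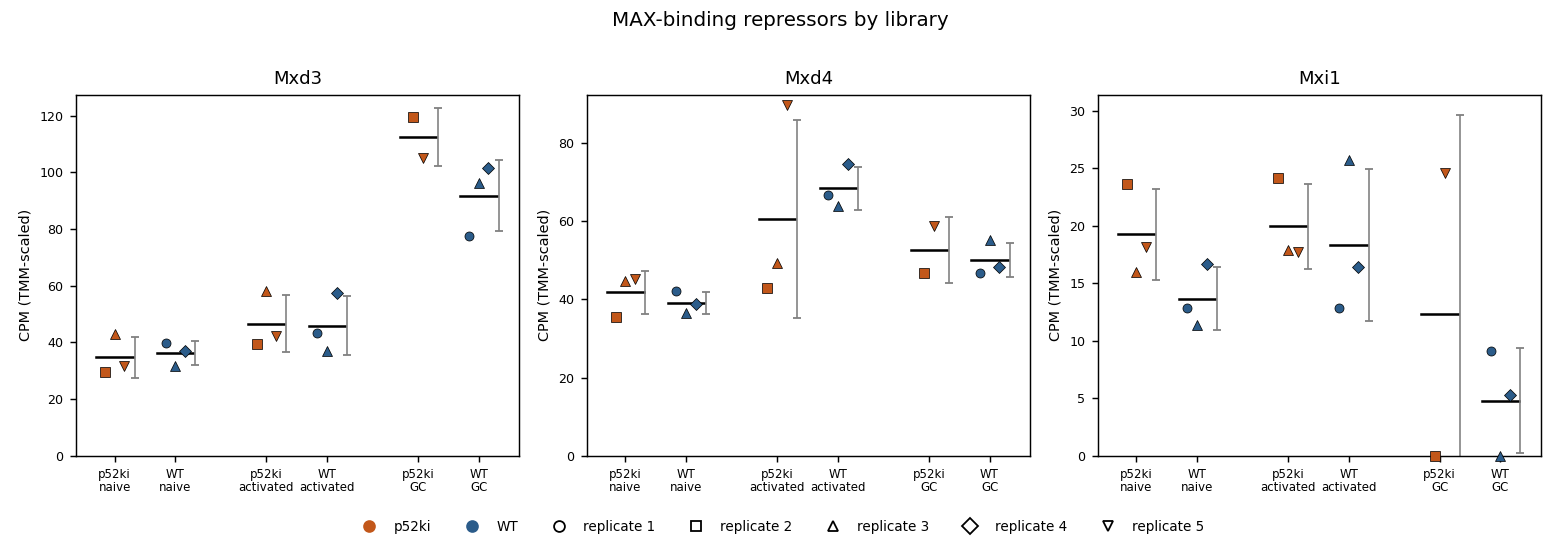
CPM of the MAX-binding repressors Mxd3, Mxd4 and Mxi1 in each library (points, marker by replicate), by genotype and stage; black lines are group means and grey bars 1 SD, cut at 0. All 5 GC libraries lie above the others for Mxd3 (77.7 to 119.7 CPM), and 1 library of each GC group lies at 0 for Mxi1.

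The make-up of the 3 repressors was compared as the share of Mxd3 in the counts of Mxd3, Mxd4 and Mxi1. In p52ki this share was 36.1 ± 4.68% in naive cells, 37.2 ± 9.12% in activated cells (SD, n = 3 each) and 63.9 ± 11.4% in GC cells (SD, n = 2). In WT it was 40.6 ± 1.29% in naive cells, 34.4 ± 4.73% in activated cells and 62.4 ± 3.74% in GC cells (SD, n = 3 each). GC cells did not overlap with activated or naive cells in either genotype, and the exact two-sided permutation test gave p = 0.1 for each of these pairs, the smallest it can give with these group sizes. Activated cells overlapped with naive cells in p52ki (exact permutation p = 1) and lay below them without overlap in WT (exact permutation p = 0.1). After Benjamini-Hochberg adjustment over 18 tests of shares the lowest p was 0.2, so no difference in this share passed the threshold. Between genotypes in GC cells the shares differed by 1.49 points (exact permutation p = 1).

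Ccnd3 (ENSMUSG00000034165, chromosome 17, 47505051 to 47599691, plus strand) was the member that rose most in WT GC cells. Naive cells had 99.6, 107 and 101 CPM in p52ki, against 116, 96.5 and 105 CPM in WT. Activated cells had 133, 139 and 103 CPM in p52ki, against 116, 99.96 and 99.8 CPM in WT. GC cells had 64.8 and 374 CPM in p52ki, against 519.7, 288 and 451 CPM in WT. All WT GC libraries stood above all 12 naive and activated ones; of the p52ki GC libraries, replicate 5 lay within the WT GC range and replicate 2 lay below every other library of the series.

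In WT, Ccnd3 averaged 419.5 ± 119 CPM in GC cells and 105 ± 9.53 CPM in activated cells (SD, n = 3 each), 3.98-fold higher (log2 1.99, SE 0.425; edgeR adjusted p = 0.00566). The difference from naive cells was also 1.99 (SE 0.425; edgeR adjusted p = 0.00475). Both calls held in 13 of 13 alternatives, with adjusted p-values of at most 0.0297 and 0.0280. As these are sorted populations, a larger share of cells with the transcript and more transcript per cell cannot be told apart. Ccnd3 shares 361 exon bases, 4.11% of its exon length, with Bysl on the opposite strand. Bysl itself stood at 53.4 and 167 CPM in p52ki GC cells and 202, 144 and 169 CPM in WT GC cells, against 40.5 to 60.2 CPM in the 12 naive and activated libraries.

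In p52ki GC cells the 2 libraries disagreed on Ccnd3. Their average of 219 ± 219 CPM (SD, n = 2) differed from activated cells by 0.81 on the log2 scale (SE 0.453; edgeR adjusted p = 0.197) and from naive cells by 1.10 (SE 0.452; adjusted p = 0.0796). Without replicate 2 these differences were 1.68 (edgeR adjusted p = 0.000581) and 2.01 (0.000112). Without replicate 5 the difference from activated cells was -0.82 (edgeR adjusted p = 0.0453), so that the direction turned. Against WT GC cells the p52ki difference was -0.93 (SE 0.471; edgeR adjusted p = 0.183), and without p52ki GC replicate 5 it was -2.60 (adjusted p = 5.81e-05). The genotype difference in the change from activated to GC cells was -1.18 with both libraries (SE 0.622; edgeR adjusted p = 0.268), and -2.85 without replicate 5 (adjusted p = 0.000105). Replicate 2 was also the GC library with the lowest sum of the 7 GC markers, at 880 CPM in replicate 2 and 1904 CPM in replicate 5, against 1746 to 2662 CPM in WT. The part of this in the Ccnd3 value was not tested.

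Ccnd2 (ENSMUSG00000000184, chromosome 6, 127125162 to 127152193, minus strand) followed another course. Naive cells had 87.9, 82.4 and 70.5 CPM in p52ki, against 88.9, 91.1 and 94.2 CPM in WT. Activated cells had 184, 163 and 234 CPM in p52ki, against 306, 201 and 224 CPM in WT. GC cells had 105 and 73.1 CPM in p52ki, against 13.6, 105 and 31.0 CPM in WT. Every activated library of either genotype was above every naive and GC library, and among WT GC cells the library with few detected genes, replicate 3, was the high one.

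The activated minus naive difference of Ccnd2 was 1.27 in p52ki (SE 0.486; edgeR adjusted p = 0.857) and 1.42 in WT (SE 0.487; adjusted p = 0.464). Fitted on the 2 groups compared alone, these differences had adjusted p-values of 0.00242 in p52ki and 0.00416 in WT, and limma voom with sample quality weights called both as well. A covariate for detected genes also gave a call in p52ki (edgeR adjusted p = 0.0423). The genotype difference in this change was -0.14 (SE 0.677; edgeR adjusted p = 1), in a comparison with 0 of 8 members called and 0% of all genes called, 0 members at an unadjusted p under 0.05 and 0 called by DESeq2 or limma voom.

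From activated to GC cells Ccnd2 fell in WT, to 49.9 ± 48.5 CPM in GC cells against 244 ± 55.4 CPM in activated cells (SD, n = 3 each; log2 -2.30, SE 0.503; edgeR adjusted p = 0.00677). With only these 2 groups in the fit the adjusted p was 0.154. In p52ki the difference was -1.12 (SE 0.556; edgeR adjusted p = 0.149) and the groups did not overlap either; with a covariate for detected genes it was -3.003 (adjusted p = 0.000876). Against WT GC cells Ccnd2 in p52ki GC cells differed by 0.85 (SE 0.533; edgeR adjusted p = 0.287); without WT GC replicate 3 it was 2.12 (adjusted p = 0.000581). The WT difference between GC and naive cells was -0.88 (SE 0.485; edgeR adjusted p = 0.247), and -2.01 without that library (adjusted p = 0.000591). It was also called with the covariate (-1.95, edgeR adjusted p = 0.000695) and with limma voom and sample quality weights (-2.01, adjusted p = 6.78e-06). The genotype difference in the change from activated to GC cells was 1.18 (SE 0.717; edgeR adjusted p = 0.344), and 2.45 without it (adjusted p = 0.00167). Plac8, the gene most like Ccnd2 over the libraries, had 713 and 299.7 CPM in p52ki GC cells, against 17.5, 128 and 44.3 CPM in WT GC cells, replicate 3 again being the highest in WT.

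The balance of the 2 cyclin transcripts was compared as the share of Ccnd3 in their counts. Ccnd3 made up 53.1%, 56.6% and 58.9% of the Ccnd2 and Ccnd3 counts in p52ki naive cells, against 56.6%, 51.4% and 52.7% in WT. In activated cells its share was 41.9%, 46.0% and 30.6% in p52ki, against 27.5%, 33.2% and 30.8% in WT. In GC cells it was 38.1% (95% exact binomial interval 34.5 to 41.8) and 83.7% (82.2 to 85.0) in p52ki, against 97.5% (96.9 to 97.9), 73.3% (71.2 to 75.2) and 93.6% (92.8 to 94.3) in WT. The gap between the 2 p52ki GC libraries is far wider than the counting intervals, which take reads as independent.

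In WT the Ccnd3 share was 53.6 ± 2.70% in naive cells, 30.5 ± 2.86% in activated cells and 88.1 ± 13.0% in GC cells (SD, n = 3 each), with no overlap between stages. The exact two-sided permutation test gave p = 0.1 for each pair of WT stages, the smallest possible with 3 against 3, and 0.2 after adjustment over the 18 tests. In p52ki, activated cells were below naive cells without overlap by 16.7 points (exact permutation p = 0.1, adjusted 0.2), and GC cells overlapped with both (exact permutation p = 0.4 against activated and 0.8 against naive cells). Between genotypes the share differed by 2.61 points in naive, 8.97 in activated and -27.2 in GC cells (exact permutation p = 0.3 in each, adjusted 0.415). With these group sizes no difference in this share could pass the threshold, so the tests cannot decide whether it differed.

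**Figure D4:**
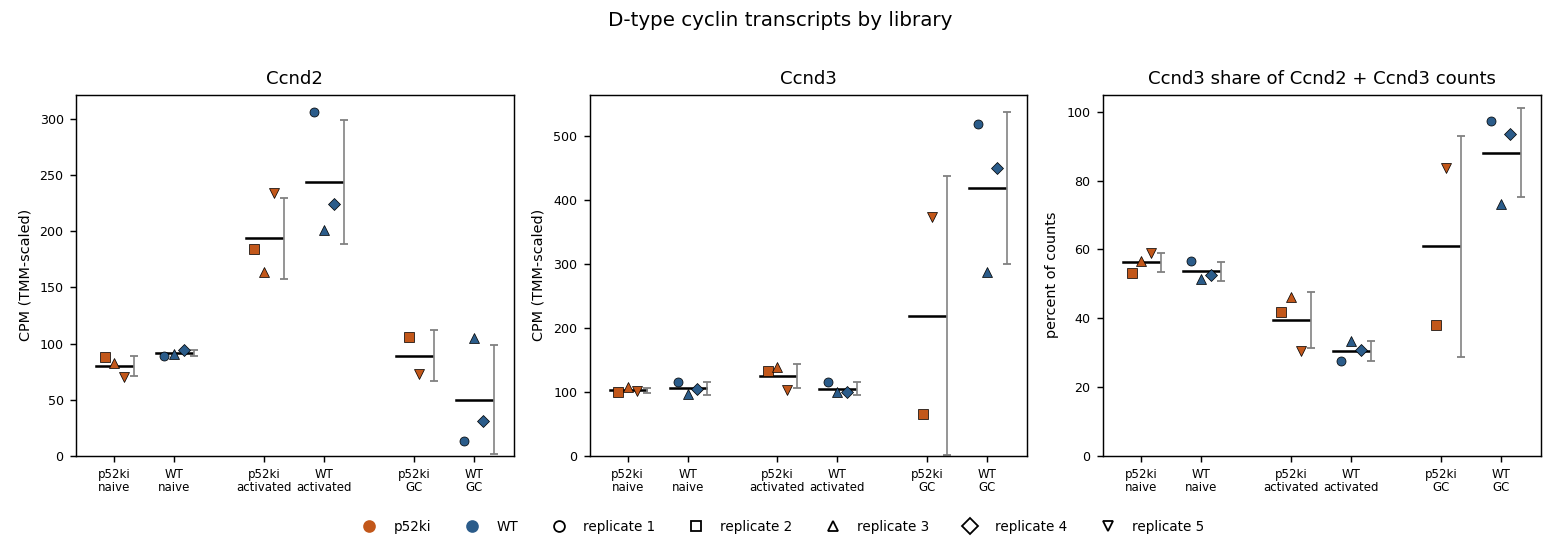
CPM of Ccnd2 and Ccnd3 and the share of Ccnd3 in their summed counts, in each library (points, marker by replicate), by genotype and stage; black lines are group means and grey bars 1 SD, cut at 0 and at the top of the share panel. Ccnd2 peaks in activated cells, Ccnd3 in WT GC cells, and the 2 p52ki GC libraries lie at 38.1% and 83.7% of Ccnd3.

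None of the 8 tested members passed the test of a genotype difference in the change from activated to GC cells, where 5.95% of all genes were called; 0 had an unadjusted p under 0.05, and DESeq2 and limma voom also called 0. The estimates for the members not yet given were -0.46 for Max (SE 0.371), 0.25 for Mxd4 (SE 0.418), 1.15 for Myc (SE 0.734), 1.23 for Mxi1 (SE 1.64) and 2.55 for Tfap4 (SE 1.36), with edgeR adjusted p-values from 0.273 to 0.775. Without p52ki GC replicate 5 this difference was called for Myc (1.96, adjusted p = 0.0384) and Tfap4 (3.56, adjusted p = 0.0362). Over the tested members the median p52ki minus WT log2 difference in GC cells was 0.57, beside -0.32 over all genes. The library numbers in the sample titles run in 1 block for WT and in a later one for p52ki, so a batch that follows this order cannot be told apart from genotype.

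Levels per kilobase use the length of all annotated exons of a gene, so the order of genes also depends on which exons are in use. That use was not tested. By CPM alone Ccnd2 was above Myc in WT activated cells (244 against 194 CPM). Per kilobase of exon, Myc was the most abundant member in naive and activated cells. It averaged 70.8 ± 29.2 CPM per kb in p52ki naive cells and 43.3 ± 13.4 in WT naive cells, and 89.1 ± 30.7 in p52ki activated cells and 71.3 ± 23.5 in WT activated cells (SD, n = 3 each). In WT GC cells Ccnd3 (47.8 ± 13.6 CPM per kb) and Mxd3 (38.8 ± 5.26) were above Myc (20.6 ± 5.17). In p52ki GC cells Myc (57.2 ± 53.3) and Mxd3 (47.5 ± 4.33) were highest on average, with Myc spread widely over the 2 libraries. Among the repressors Mxd3 exceeded Mxd4 and Mxi1 in mean level per kb in all 6 groups. Mxd4 ranged from 4.62 to 8.06 and Mxi1 from 0.704 to 2.92 CPM per kb in group means. The exon length was 2.37 kb for Mxd3 and 8.48 kb for Mxd4. By mean CPM Mxd4 was above Mxd3 in naive cells (41.89 against 34.86 in p52ki, 39.15 against 36.15 in WT) and in activated cells, and below it in GC cells.

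The wider pathway is described by lists chosen with results of these data known. Of 17 tested genes in the rest of the MYC network, 2 rose and none fell in WT GC cells against activated cells, where 5.8% of all genes were called higher and 7.75% lower; the median log2 difference was 0.21 beside -0.13 over all genes. These were Fbxw7 (log2 1.38, SE 0.296; edgeR adjusted p = 0.00588), whose product marks MYC protein for degradation, and Ruvbl2 (1.06, SE 0.236; 0.00714), a chromatin remodeller and MYC cofactor. In p52ki GC against activated cells 1 gene of this list was called, Mlxip, a partner of MLX, which fell (log2 -1.84, SE 0.478; edgeR adjusted p = 0.0129), where 19.3% of all genes were called lower. Between genotypes in GC cells 0 of the 17 were called, where 16% of all genes were called.

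A further list held partners and targets of the D-type cyclins. Of its 25 tested genes, 6 rose and 2 fell in WT GC against activated cells, where 5.8% of all genes were called higher and 7.75% lower, with a median of 0.40 beside -0.13 over all genes. Ccne2, the cyclin of the next step, stood at 159 CPM in WT GC cells and 24.5 CPM in WT activated cells (log2 2.69, SE 0.268; edgeR adjusted p = 2.55e-05). Cks1b, a subunit of cyclin-dependent kinases, differed by 3.06 (SE 0.418; adjusted p = 0.000235). Tfdp1, the partner of E2F factors, differed by 2.09 (SE 0.265; adjusted p = 0.000136). In p52ki GC against activated cells 4 rose and 4 fell, where 6.34% of all genes were called higher and 19.3% lower, with a median of -0.23 beside -0.41 over all genes; Ccne2 (1.86, SE 0.280; edgeR adjusted p = 0.000505) and Cks1b (2.36, SE 0.433; 0.00192) were among those that rose.

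In p52ki GC cells against WT GC cells, 7 of the 25 fell and none rose, where 12.2% of all genes were called lower and 3.75% higher, with a median of -0.84 beside -0.32 over all genes. Rbl1 and E2f4, which encode a pocket protein and the E2F that pairs with it, fell by 1.37 (SE 0.269; edgeR adjusted p = 0.00441) and by 1.38 (SE 0.277; 0.00517) on the log2 scale. Cdkn2c, an inhibitor of CDK4 and CDK6, had 1.39 CPM in p52ki GC cells and 28.8 CPM in WT GC cells (edgeR adjusted p = 0.00774). Tfdp1 fell by 1.32 (SE 0.298; adjusted p = 0.0101). Of the GC libraries, 2 of 3 in WT had a number of detected genes within the range of the other stages, and neither of those in p52ki; the part of this in these counts was not tested. Over all genes this comparison gave 2450 calls with every group in the fit, 0 with these 2 groups alone and 15 with limma voom and sample quality weights.

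Of 48 MYC target genes, 6 rose and none fell in WT GC against activated cells (median 0.32 beside -0.13 over all genes), among them Ptma (log2 1.04), Ran (1.20) and Odc1 (1.37), the last an enzyme of polyamine synthesis. Over all genes 13.6% were called in that comparison, 5.8% higher and 7.75% lower. The number called in both directions together was near that background, but all 6 calls were rises. In p52ki GC against activated cells 3 rose and 4 fell (median 0.01 beside -0.41 over all genes), where 6.34% of all genes were called higher and 19.3% lower; Ran rose by 1.24 and Nop58, a nucleolar protein, fell by 0.90. In p52ki against WT GC cells 5 fell and none rose (median -0.26 beside -0.32 over all genes), with Nop58 falling by 1.49 and Hspd1 by 1.50. In that comparison 12.2% of all genes were called lower, so neither the count nor the median set the list apart from all genes. Of 22 proliferation genes, 14 rose in p52ki GC against activated cells (median 2.31) and 21 rose in WT GC against activated cells (median 3.04). Their sum was 2555 and 3343 CPM in p52ki GC cells, against 7872, 3778 and 7933 CPM in WT GC cells, and 6 of the 22 fell in p52ki against WT GC cells. Mxd3 was above all WT GC libraries in both p52ki GC libraries; its difference from the list was not tested.

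The genes whose log2 CPM followed each member most closely over the 17 libraries were sought among 6408 protein-coding genes whose mean was 20 CPM or more. These correlations share the library, its depth and its stage, and are descriptions only. Mxd3 was matched by the histone genes Hist1h2ap (Pearson r = 0.969) and Hist1h2ag (0.968) and by Rnaseh2b (0.965). Ccnd3 was matched by Bysl (0.960), Snrpa1 (0.952) and Ube2m (0.951), of which Bysl overlaps it. Ccnd2 was matched by Plac8 (0.925), Pld4 (0.918) and Sub1 (0.906), and Myc by Nr4a1 (0.893), Egr1 (0.891) and Pdlim2 (0.881).

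Weaker or less independent matches were found for the rest. Max was nearest to Lax1 (Pearson r = 0.840) and Mxd4 to Cbfa2t3 (0.760), followed by Mzb1 (0.737) and Jchain (0.672), markers of plasma cells. Mxi1 was nearest to Igtp (0.987) and Tfap4 to Zfp830 (0.965). Both of these rest on libraries with few detected genes, since Mxi1 was at 0 in 2 of them and Tfap4 had its peak in p52ki GC replicate 2.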

How the data were processed

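RNA was measured in 17 libraries of sorted mouse spleen B cells (3 per genotype and stage, 2 of p52ki GC cells). Per the labels' protocols, small amounts of RNA were amplified by SMARTSeq v2 and sequenced in read pairs; no molecular identifiers are named, so counting intervals cover counting error only. The deposited table holds unnormalised counts of reads by gene. For it the authors used GRCm38, HISAT2 2.1.0, featureCounts (Subread 1.6.2) and SAMtools 1.8, per the submitters' processing notes. The sources used here do not give the strand setting or the treatment of multimapping reads. All 9 members are in GENCODE mouse release M21 (GRCm38), as are 55450 of the 55536 identifiers.

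Genes were kept by filterByExpr over the 6 groups. The counts were scaled by TMM and fitted with edgeR 4.0.16 in R 4.3.3 (glmQLFit, robust; glmQLFTest) with 1 coefficient per group over all 17 libraries, and 11 comparisons were made. Adjusted p-values are Benjamini-Hochberg over all 15352 genes, with calls under 0.05. SE is the log2 difference over the square root of F. Shares of counts were compared by exact two-sided permutation tests. DESeq2 1.42.0, limma 3.58.1 voom, other scaling, filters and covariates, and omission of each library were alternatives. The edgeR fit was tested on simulated data. The first fold size tried there was recovered too rarely to pass, so a larger one was used, and even at that size only part of the changed genes was recovered, with few false calls. A member that was not called may therefore still differ.

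No label says that replicates are separate animals, so p-values measure the spread between these libraries, which may be technical. Libraries of a group differed by more than counting error (chi-square per degree of freedom 7.89 to 116). Members and gene lists were chosen with earlier results of these data known. Named beside the members were, from 4 lists, up to 4 called genes with the smallest p in a comparison, and the 3 protein-coding genes nearest to each member by correlation of log2 CPM (prior count 2). Genes named from marker lists, Bysl in the overlap, and example genes were chosen after their values were seen.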

Additional observations from a re-analysis of the deposited data

How the results depend on the processing

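Of 1216 pairs of a result and an alternative, 1076 kept their direction and side of the threshold, 22 lost a call, 33 gained one, 3 turned direction with a call and 82 moved otherwise. The number of members called in p52ki against WT GC cells was 1, and 2 with detected genes as a covariate, with DESeq2 or with WT GC replicate 3 alone as WT, 0 with limma voom and sample quality weights or the groups alone, and 0 to 4 on omitting a library. For WT activated against naive it was 0, and 3 with voom weights and 1 with the groups alone; for p52ki it was 0, and 1 under the covariate, voom weights or the groups alone. For WT GC against activated it was 4, and 2 with no filter or the groups alone, and 2 to 3 on omitting a library. For p52ki GC against activated it was 1 (Mxd3), and 1 with the covariate but Ccnd2 in place of Mxd3, 0 with voom weights or the groups alone, and 1 to 4 on omission; against naive it was 1, and 2 with the covariate or DESeq2, and 1 to 3 on omission. The genotype difference in the GC change had 0, 1 with the covariate and 0 to 3 on omission. Fitted differences turned for Mxi1 in p52ki against WT GC cells (-8.32 to 2.42 on omission), Ccnd3 in p52ki GC against activated cells (-0.82 to 1.68) and Ccnd2 in p52ki GC against naive cells (-1.60 under the covariate, adjusted p = 0.0220). Over all genes, calls numbered 2450 in p52ki against WT GC cells (0 with the groups alone to 4472 over the alternatives), 2081 in WT GC against activated (543 to 5023) and 2445 against naive cells (1286 to 5953), 3930 in p52ki GC against activated (186 to 5436) and 4461 against naive cells (390 to 5910), and 49 in WT (11 to 1618) and 18 in p52ki (1 to 1228) activated against naive cells. The cause of these changes was not tested. The labels do not say whether replicate numbers pair the samples, and the main fit takes them as unpaired. Deviations of the same number correlated at -0.229 to 0.281, over 0.1 in 4 of 16 pairs. Between naive and activated cells they correlated at 0.0786 to 0.281 for the same number. For different numbers these 2 stages correlated at -0.230 to 0.147, so a pairing of naive and activated cells remains possible. With the replicate block, 4 members were called in WT GC against activated and 3 against naive (Myc added, log2 -1.03, adjusted p = 0.0389), 1 in each p52ki GC comparison, and, with the block as a random effect in limma voom, 0 in p52ki against WT GC cells (Tfap4 at an adjusted p of 0.113). Scaling by RLE moved the median of all genes by at most 0.1 (log2).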
